A study of Rattus norvegicus with 4 samples.

Results

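Cortical cells on the N-SFMA hydrogel were compared with the same kind of cells on plain SFMA hydrogel, 1 RNA library against 1 library. The comparison took every gene with an FPKM (the authors' reads scaled to gene-model length and library size) of at least 1 in either library, which kept 11993 of the 18755 genes listed. Primary cerebral cortex cells, taken at embryonic day 16 from rats of the Sprague Dawley stock, were seeded at 100000 cells per well and kept for 24 h in Neurobasal medium with B27 supplement. All 4 groups of the series (plain SFMA, N-SFMA, L-SFMA, NL-SFMA) shared these conditions and differed in the hydrogel, with 5 parallel wells and 1 library each. The question of the series is what an adhesion cue between cells, built into a hydrogel, does to neural growth. The sources used here do not spell out SFMA, N or L, nor whether the wells were pooled. Primary cortical cultures of this age hold several cell types, and in a bulk library fewer cells of a type and less RNA per cell cannot be told apart. With 1 library a side there was no spread between replicates, so no test of a difference was possible and every difference below describes this pair of libraries.

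Embryonic cortex at this stage holds dividing radial glia, which line the ventricle, and the neurons they produce. Fibroblast growth factors acting through the ERK kinases keep radial glia dividing, and the pathway switches on its own inhibitors, the Sprouty proteins, together with the PEA3 subfamily of ETS transcription factors. Immediate early genes are transcribed within minutes of a stimulus through calcium, cAMP and ERK. Metallothioneins are small cysteine-rich proteins that bind zinc and copper, and their genes respond to free metal through a metal-sensing factor.

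Summed read counts were 17553098 for SFMA against 15429180 for N-SFMA, with 16340264 for L-SFMA beside 14172205 for NL-SFMA. The read-weighted median gene-model length was 2851 bases in SFMA and 3278 in N-SFMA, so reads of the SFMA library came from shorter gene models. Across the tested genes the log2 difference (N-SFMA minus SFMA, on log2 of FPKM plus 1) correlated with log2 length at r = 0.47, and at r = -0.06 once a smooth trend on length was removed. The correlation is across genes, which are not independent replicates. The median difference was -0.49 for 833 genes with models under 1 kb and 0.45 for 612 genes of 8 kb or more. Differences called length-removed below are relative to genes of like length. Gene-model length is not transcript length. The ribosomal protein gene Rpl30 has a model of 4569 bases here, and the removal moves such short transcripts with long models further down. Transcripts longer than their models would be moved further up.

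**Figure D1:**
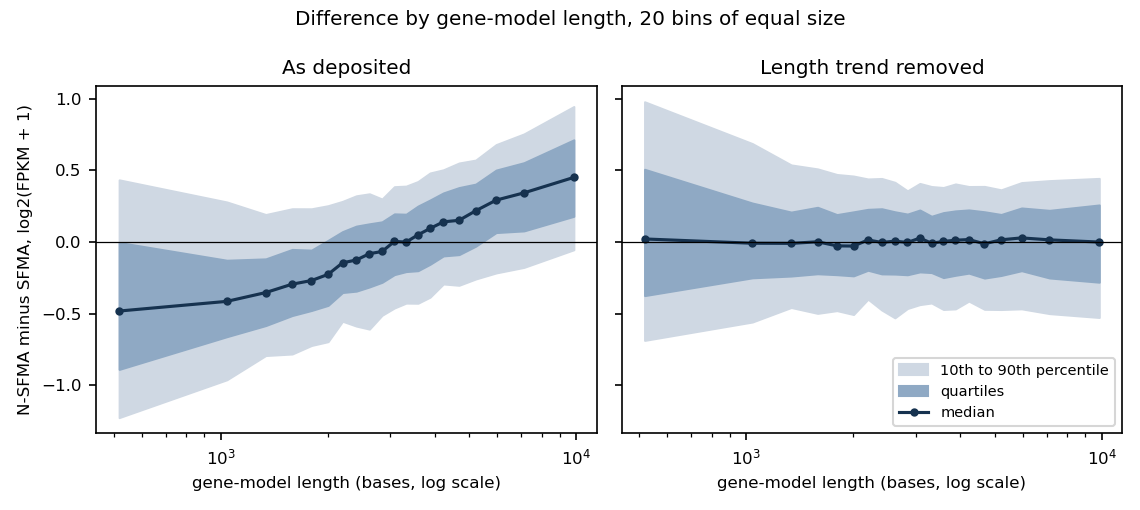
The N-SFMA minus SFMA difference, as log2 of FPKM plus 1 (vertical axis), in 20 equal-sized bins of gene-model length (horizontal axis, log scale), as deposited on the left and with the length trend removed on the right; lines are medians, dark bands quartiles and pale bands the 10th to 90th percentiles. On the left the median runs from below 0 in short models to above 0 in long ones, and on the right it stays near 0 in every bin while short models remain the most spread.

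With the length trend removed, 139 genes (1.16% of those tested) were at least 2-fold higher in the N-SFMA library and 155 (1.29%) at least 2-fold lower. Without the removal the counts were 106 higher (0.884%) and 328 lower (2.73%), so that higher genes made up 47.3% of calls with the removal and 24.4% without it. Of the 155 lower genes 134 had an assigned symbol, 102 also reached 5 FPKM, and 133 were called without the removal too. With or without a symbol, 117 of the 155 reached 5 FPKM, near the all-gene share (8659 of 11993), beside 60 of the 139 higher genes. The higher genes were mostly short and sparse: 53 of 139 had an assigned symbol, 25 also reached 5 FPKM, 45 were called without the removal, and their median model length was 1090 bases against 2966 for all tested genes. No gene with a model of 4 kb or more was 2-fold higher after the removal, among 3048 genes of 4 to 8 kb and 612 longer ones. The exact counting interval lay clear of the length trend for 135 of the 139 higher genes and for all 155 lower ones. These genes were chosen on the same counts for their distance from that trend, so this is largely fixed by the choice. The interval covers counting error only and not variation between libraries.

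The functional lists, 126 in number, covered 4847 tested genes in 14 kinds of function. The list fold of 1.5 was passed by 5.89% of all tested genes upward and by 6.7% downward. Genes of the nucleus and cell division were lower past 1.5-fold in 12.1% of 396 cases, genes of immunity and blood in 12% of 75, signalling genes in 11.5% of 511 and matrix and adhesion genes in 10.9% of 294. Mitochondrial genes (10.3% of 282) and genes of protein synthesis (9.39% of 277) followed. Cytoskeletal genes were past 1.5-fold higher in 8.62% of 348 cases, and matrix and adhesion genes in 7.14%. Membrane traffic (2.46% higher and 3.12% lower of 448) and protein folding and degradation (4.2% and 3.11% of 547) were under the all-gene share both ways. A list is described below where at least 3 of at least 5 tested members, and at least 2 times the all-gene share, passed 1.5-fold in 1 direction. This held for 25 lists downward and 7 upward, and the other 94 are given as counts only. Without the length removal 7.4% of all tested genes were past 1.5-fold higher and 11% lower, and the rule read on those values held for 17 of the 25 lists and 5 of the 7. It no longer held downward for Wnt, Notch, chaperonin, cyclin D, myosin, collagen, heparan sulphate and integrin lists, nor upward for thyroid hormone handling and tubulins. Some single members also pass only after the removal. Downward these have long models, such as Notch2 (-0.48 before and -0.99 after), Ccnd2 (-0.45 and -0.73), Gjc1 (-0.40 and -0.63) and B3gat3 (-0.42 and -0.61). Upward they have short models, such as Tubb3 (0.47 and 0.72).

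**Figure D2:**
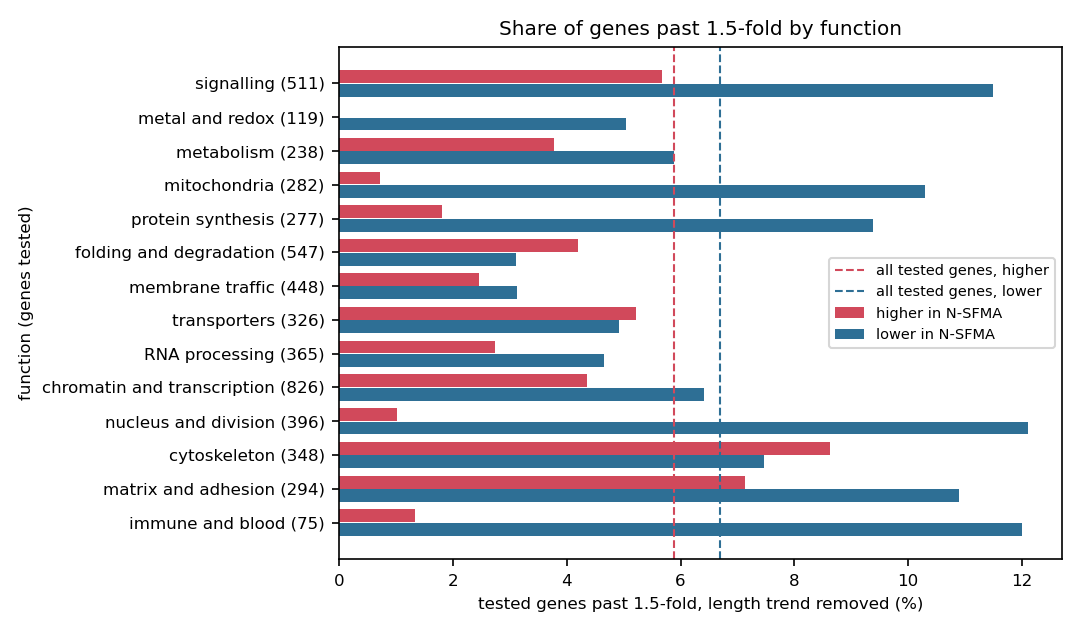
Share of tested genes past 1.5-fold (horizontal axis, percent) in each kind of function (vertical axis, with the number of genes tested), red for higher and blue for lower in the N-SFMA library, with dashed lines at the shares over all tested genes. The blue bars of division, immune, signalling and matrix genes reach beyond 10%, and the red bar of cytoskeletal genes is the longest of its colour.

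Because metallothioneins and the immediate early genes Fos and Nr4a1 were among the 15 named genes that were lowest, upstream sequences of metallothionein genes and of Nr4a1 are shown first. They are the 250 bases before the RefSeq gene start in the rat build GRCr8, printed 5′ to 3′ on the gene's strand: chr19:10856081-10856330 (Mt3), chr19:10838709-10838958 (Mt2A) and chr19:10832976-10833225 (Mt1), all on the minus strand, and chr7:134259888-134260137 (Nr4a1) on the plus strand. In the metallothionein genes capitals mark the core of the metal response element (TGCACNC or TGCGCNC, either strand), the site of the metal-sensing factor. In Nr4a1 capitals mark the core of the cAMP response element (TGACG, either strand).
Mt3: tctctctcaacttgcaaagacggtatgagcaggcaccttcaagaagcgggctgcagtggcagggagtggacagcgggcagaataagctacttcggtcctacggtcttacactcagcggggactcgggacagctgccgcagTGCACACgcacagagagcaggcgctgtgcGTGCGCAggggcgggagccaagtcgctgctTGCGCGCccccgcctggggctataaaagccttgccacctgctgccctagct
Mt2A: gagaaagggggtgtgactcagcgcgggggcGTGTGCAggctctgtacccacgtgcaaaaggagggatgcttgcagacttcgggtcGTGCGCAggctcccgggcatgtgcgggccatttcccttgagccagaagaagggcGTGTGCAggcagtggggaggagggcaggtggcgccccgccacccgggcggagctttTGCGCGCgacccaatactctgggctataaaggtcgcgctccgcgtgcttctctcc
Mt1: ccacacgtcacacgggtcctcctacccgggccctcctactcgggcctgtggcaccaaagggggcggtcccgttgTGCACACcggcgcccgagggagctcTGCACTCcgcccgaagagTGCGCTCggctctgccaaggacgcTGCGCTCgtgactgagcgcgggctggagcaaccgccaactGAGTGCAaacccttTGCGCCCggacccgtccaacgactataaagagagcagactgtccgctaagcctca
Nr4a1: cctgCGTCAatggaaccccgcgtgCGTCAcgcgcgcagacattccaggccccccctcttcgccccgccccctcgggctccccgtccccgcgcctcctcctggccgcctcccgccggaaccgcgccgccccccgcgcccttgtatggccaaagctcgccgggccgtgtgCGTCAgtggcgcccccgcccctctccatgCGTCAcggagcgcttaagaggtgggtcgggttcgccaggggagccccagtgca
The metal core was found 3 times in Mt3, 4 times in Mt2A and 6 times in Mt1, and the cAMP core 4 times in Nr4a1. Of 10131 promoters of tested genes in the RefSeq table, 32% held the metal core and 28.4% the cAMP core, so neither is rare in a window of this length. The complete cAMP element (TGACGTCA, which contains the core on both strands) was found in 4 of 14 promoters of immediate early genes and in 2.98% of all. Of the 15 named lower genes 11 had promoters there, 13 in all, and Etv4, Fos, Rhbdf1 and Slco1c1 had none. In these 13 the metal core was in 6, the cAMP core in 3 and the complete cAMP element in 0. The AP-1 element (TGACTCA) was in 1, the CArG box in 1, the ETS core (CCGGAAG) in 0 and an E-box (CANNTG) in 9. The shares over all promoters were 2.63% for AP-1, 1.22% for the CArG box, 15.5% for the ETS core and 55.3% for the E-box. A match describes these letters and is not a measured binding site.

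Metal and redox genes as a group were not lower beyond the all-gene share (6 of 119, 5.04%). Within the zinc list 3 of 23 tested members were past 1.5-fold lower, all of them metallothioneins, which left the list just under the rule. Mt3, the brain-enriched metallothionein, was at 280 FPKM on SFMA against 36.1 on N-SFMA, with 36.7 on L-SFMA beside 23.5 on NL-SFMA. It was 7.76-fold lower in N-SFMA than in SFMA (95% counting interval 6.72 to 9.0), with a length-removed difference of -2.37. Mt2A, a ubiquitous metal-inducible form, was at 126, 18.9, 19.4 and 20.9 FPKM in the same order, and was 6.69-fold lower (5.49 to 8.2, length-removed -2.13). Mt1 was at 22.5 FPKM in SFMA and 6.65 in N-SFMA (length-removed -1.07). The SFMA library stood above the other 3 for each of these genes, whose similar sequences may share reads. No member of the iron and copper list (26 tested) or of the selenoprotein list (14 tested) passed 1.5-fold either way.

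FGF receptors and ERK feedback genes were lower past 1.5-fold in 8 of 22 cases (36.4%), with 1 higher, and a list median of -0.37 against 0.00 for all tested genes. Etv4, a PEA3 factor induced by FGF, was at 13.5 FPKM on SFMA against 0.455 on N-SFMA, with 0.836 on L-SFMA beside 0.651 on NL-SFMA, and was 29.7-fold lower in N-SFMA than in SFMA (18.9 to 49.7). Spry4, a Sprouty inhibitor of receptor tyrosine kinase signalling, was at 7.64, 0.191, 0.602 and 0.541 FPKM (40.0-fold lower, 24.1 to 71.8, length-removed -3.06). Etv5, the second PEA3 factor, was at 33.0, 6.17, 8.40 and 7.68 FPKM (length-removed -2.34). In all 3 genes SFMA was high and the other libraries lay together at a low level. The third PEA3 factor Etv1 was at 7.58 FPKM in SFMA and 3.52 in N-SFMA (length-removed -1.23), and Spry2 at 15.4 and 7.07 (-1.05). Rhbdf1, an inactive rhomboid that controls release of EGF receptor ligands, was at 8.44 and 1.39 FPKM (length-removed -1.94). The adhesion protein Flrt3, a partner of FGF receptors, was the member past 1.5-fold higher (5.62 and 11.4 FPKM, length-removed 0.71).

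Immediate early genes had the largest share past 1.5-fold lower of the signalling lists, 10 of 19 (52.6%) with 0 higher, and a median of -0.83. Fos, a subunit of the AP-1 dimer, was at 15.7 FPKM on SFMA against 0.816 on N-SFMA, with 1.62 on L-SFMA beside 0.799 on NL-SFMA, and was 19.2-fold lower in N-SFMA (12.3 to 31.8). Nr4a1, an orphan nuclear receptor, was at 7.89, 0.511, 0.620 and 0.0795 FPKM (length-removed -2.48). Fosb, a relative of Fos, was at 2.50 and 0.139 FPKM in SFMA and N-SFMA (length-removed -1.68). The activity-dependent factor Npas4 was at 2.27 and 0.0263 FPKM, from 98 reads and 1 read, a CPM ratio of 86.1 with a counting interval of 15.1 to 3437. Jun, the partner of Fos, was at 37.4 FPKM in SFMA and 17.8 in N-SFMA, while L-SFMA held 29.7 and NL-SFMA 12.3.

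Other signalling lists were lower in fewer members. BMP and TGF-beta signalling had 5 of 27 members past 1.5-fold lower (18.5%) and 2 higher, with a median of -0.07. The lower members were the BMP antagonists Nbl1 (34.7 FPKM in SFMA and 10.8 in N-SFMA, length-removed -1.41) and Nog (-0.71), the ligand Bmp7 (-1.34) and the BMP-induced inhibitors of differentiation Id1 (-0.92) and Id3 (-0.79). The higher members were the activin subunit Inhba (1.13) and the activin receptor Acvr2a (0.98).

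Notch signalling had 4 of 29 members past 1.5-fold lower (13.8%) and 1 higher. Lfng, a glycosyltransferase that modifies Notch receptors, was at 23.9 FPKM on SFMA against 5.79 on N-SFMA, with 8.63 on L-SFMA beside 3.83 on NL-SFMA (length-removed -1.76). The receptors Notch2 (-0.99) and Notch3 (-0.89) and the feedback target Nrarp (-0.69) were the other lower members, and the ligase Mib1, which activates Notch ligands, was higher (0.62). Wnt signalling had 5 of 36 members lower (13.9%) and 2 higher. The lower ones were the receptors Lrp4 (-0.94) and Fzd7 (-0.65), the Wnt-binding protein Sfrp2 (-0.83), the nuclear factor Tcf7 (-0.71) and the ligand Wnt7a (-0.62), and the higher ones were Apc (0.66), part of the beta-catenin destruction complex, and the receptor Fzd1 (0.61). Without the length removal the Wnt list had 3 lower and 3 higher.

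The Hippo pathway, which restrains the co-activators YAP and TAZ, had 7 of 21 members past 1.5-fold lower (33.3%) and 0 higher, with a median of -0.27. Yap1, the co-activator itself, was at 10.6 FPKM in SFMA and 5.72 in N-SFMA (length-removed -0.94). Its DNA-binding partner Tead2 was at 46.8 and 23.4 FPKM (-0.82), and the LIM protein Ajuba at 9.36 and 4.11 FPKM (-1.01). The YAP target Ccn2, also called CTGF, was at 4.01 FPKM on SFMA against 1.27 on N-SFMA, with 3.27 on L-SFMA beside 3.30 on NL-SFMA (-1.08). The L-SFMA and NL-SFMA libraries lay near SFMA for Ccn2, while for Etv4, Spry4 and Etv5 they lay near N-SFMA.

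The thyroid hormone and retinoid list had members far apart in both directions, 3 of 21 higher (14.3%) and 2 lower, or 1 higher and 2 lower without the length removal. The transporter Slco1c1, which carries thyroxine into cells, had the largest length-removed difference of the 15 named lower genes, -3.27: 13 FPKM on SFMA against 0.381 on N-SFMA, with 0.428 on L-SFMA beside 0.727 on NL-SFMA, or 34.1-fold lower in N-SFMA (20.8 to 60.1). The activating deiodinase Dio2 was at 1.24 FPKM in SFMA and 0.0412 in N-SFMA (length-removed -1.39). The inactivating deiodinase Dio3 was at 5.50 and 6.96 FPKM, a CPM (reads scaled to library size) ratio of 1.27 whose counting interval, 0.940 to 1.71, holds 1, and its length-removed value was 0.73. The retinoic acid binder Crabp1 (0.757 and 2.15 FPKM, length-removed 1.28) and the retinol receptor Stra6 (0.778 and 1.56 FPKM, length-removed 0.60) were the other higher members.

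Of 59 mitosis genes, 24 (40.7%) were past 1.5-fold lower and 0 higher, 56 of 59 lay below 0, and the median was -0.53. They included the kinetochore genes Spc24 (38.9 FPKM in SFMA and 12.1 in N-SFMA, length-removed -1.17), Cenpm (19.5 and 7.55 FPKM, -1.01) and Cenpa (4.45 and 2.21 FPKM, -0.99), and the mitotic-entry gene Cdca3 (38.9 and 15.6 FPKM, -1.04). Of 52 replication genes, 9 (17.3%) were lower and 0 higher, with 50 below 0 and a median of -0.39. Without the length removal 20 of these 52 were lower. Gmnn, which blocks a repeat of licensing, was at 35.3 FPKM on SFMA against 11.3 on N-SFMA, with 14.1 on L-SFMA beside 12 on NL-SFMA (length-removed -1.19). The polymerase subunits Pola2 (-0.87) and Pole2 (-0.79) and the origin protein Orc1 (-0.72) followed. The list of D cyclins, CDK inhibitors and RB proteins had 5 of 28 members lower (17.9%) and 0 higher: Ccnd1, a cyclin induced by growth factors (15.1 and 5.02 FPKM, -1.26), Cdk2 (-0.88), Ccnd2 (-0.73), Cdkn3 (-0.68) and the p53 target Cdkn1a (-0.61). None of these 3 lists had a member past 1.5-fold higher, and 5 of the 155 genes 2-fold lower belonged to them. These were 3 of 59 mitosis genes, 1 of 52 replication genes and 1 of 28 in the cyclin list, beside 1.29% of all tested genes. DNA repair (0 higher and 1 lower of 56) and nuclear pore genes (0 and 2 of 58) did not pass the rule.

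Histone genes were lower in 8 of 31 cases (25.8%) with 0 higher, the median being -0.24. Without the length removal 17 were lower and the median was -0.61. Most replication-dependent histone transcripts lack a poly(A) tail, and the libraries were made from poly(A) RNA. The 2 largest of these differences, Hist1h2bc (3.24 FPKM in SFMA and 0.246 in N-SFMA, -1.24) and 1 of 2 rows named Hist1h3b (3.63 and 0.550 FPKM, -1.05), rest on 30 reads each in SFMA and on 2 and 4 reads in N-SFMA. The polyadenylated variant gene H2az2 was at 106 and 54.3 FPKM (-0.85), and H3c1 at 3.45 and 0.842 (-0.74). Histone genes are near-identical copies, and reads between them are uncertain.

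Among transcription factors, the Sox, Fox and bHLH list had 16 of 67 members past 1.5-fold lower (23.9%) and 3 higher, though its median was 0.05. Sox3, a factor of neural progenitors, was at 74.4 FPKM on SFMA against 10.9 on N-SFMA, with 17.2 on L-SFMA beside 6.12 on NL-SFMA, and was 6.80-fold lower in N-SFMA (5.92 to 7.84). The other lower members with the largest differences were Olig1 (-1.16), of the oligodendrocyte lineage, Sox21 (-1.02), of progenitors, and Sox8 (-0.96), a relative of Sox9. Of the 16 lower members, 8 are in the radial glia, astrocyte or oligodendrocyte marker lists. The higher members were the proneural factor Neurod4 (1.02), the factor of young neurons Sox11 (162 and 239 FPKM, 0.75) and Tcf20 (0.70), which the list counts though it belongs to none of these families.

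**Figure D3:**
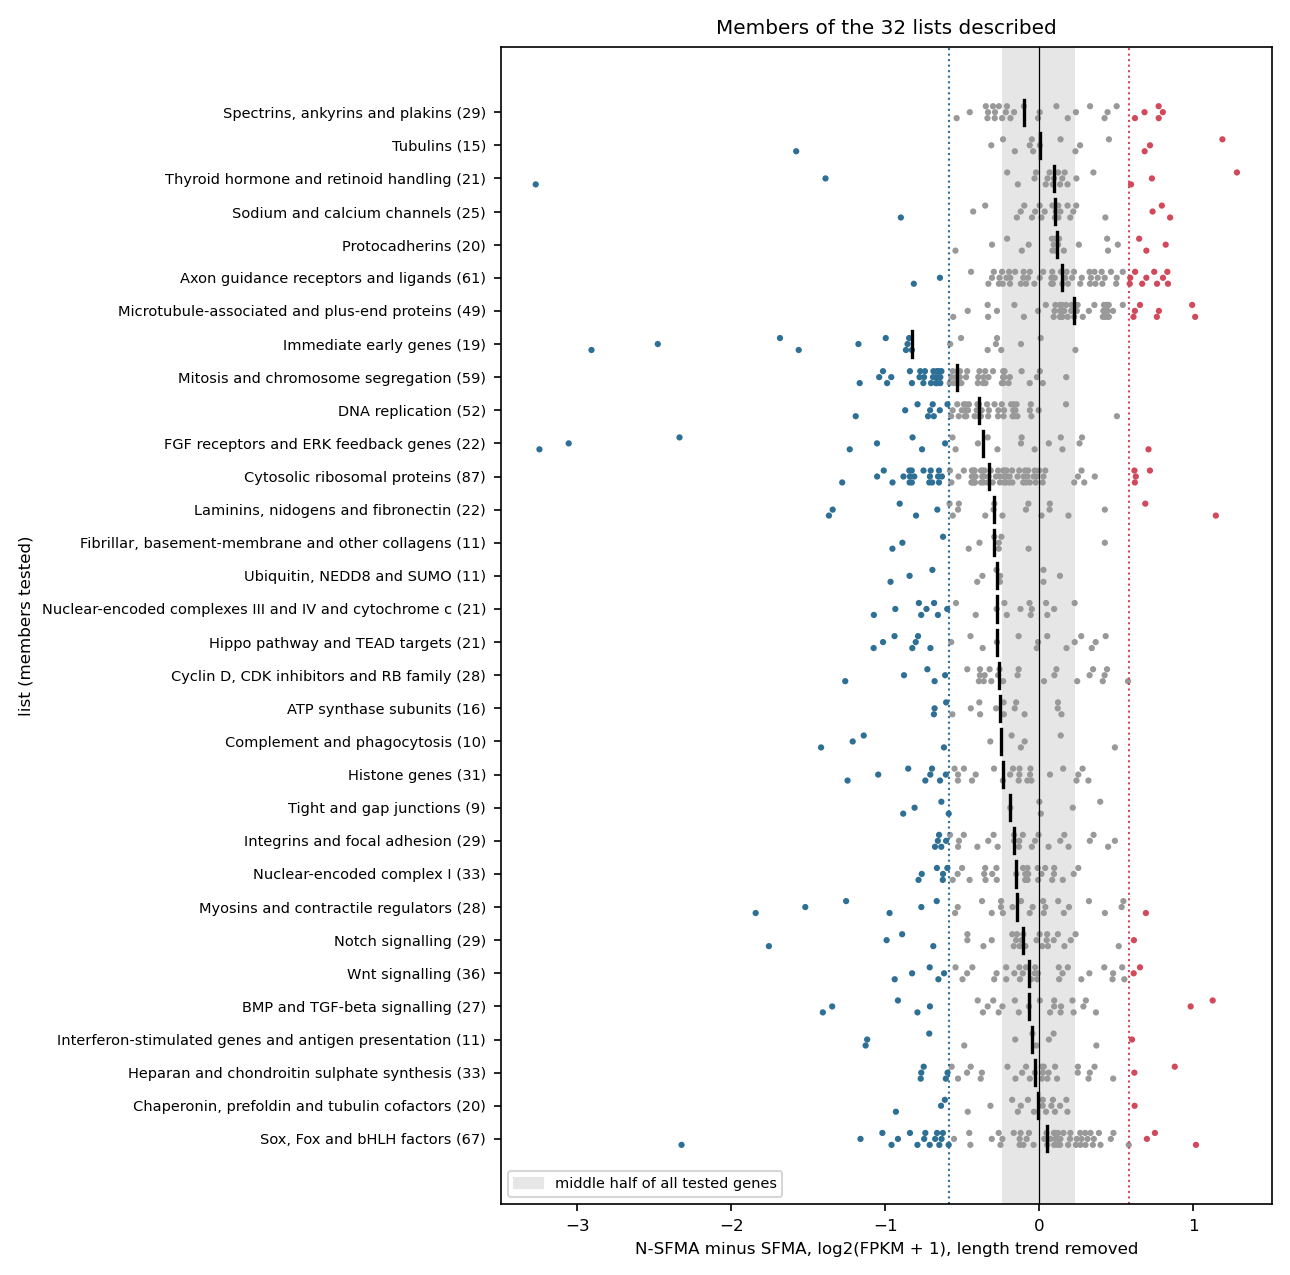
Length-removed N-SFMA minus SFMA difference (horizontal axis, log2) of each tested member (points) of the 32 lists described (vertical axis, with members tested); black bars are list medians, the grey band is the interquartile range of all tested genes and dotted lines mark 1.5-fold. Immediate early, mitosis and replication genes have the lowest medians (-0.83, -0.53 and -0.39), while other lists have a median near 0 and a few distant members.

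Genes of the mitochondrial respiratory chain encoded in the nucleus were lower in a minority of members, by small amounts. Complexes III and IV with cytochrome c had 8 of 21 members past 1.5-fold lower (38.1%), complex I had 6 of 33 (18.2%) and ATP synthase 3 of 16 (18.8%), each with 0 higher. Their medians were -0.28, -0.15 and -0.26. Cox7b, a small subunit of cytochrome oxidase, was at 63.0 FPKM in SFMA and 22.5 in N-SFMA (-0.93), and Ndufa4, another subunit of that oxidase, at 42.3 and 18.6 (-1.07). Uqcrb of complex III (34.5 and 16.3 FPKM, -0.78), Ndufb3 of complex I (64.5 and 27.2 FPKM, -0.78) and the ATP synthase subunits Atp5mk (-0.68), Atp5mg (-0.68) and Atp5me (-0.60) also passed. Most of these gene models are short, with list medians of 1100 to 1369 bases, and without the length removal 11, 13 and 9 members passed in the same order. The mitochondrially encoded genes had 2 of 12 higher and 1 lower.

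Cytosolic ribosomal protein genes had 20 of 87 members past 1.5-fold lower (23%) and 4 higher, with a median of -0.33. Without the length removal 53 were lower and 0 higher, with a median of -0.67. Rps29 was at 670 FPKM in SFMA and 246 in N-SFMA (-0.95), Rps25 at 135.9 and 68.5 (-1.01), Rpl30 at 32.4 and 14.3 (-1.28), and the larger of 2 rows named Rpl35a at 62.9 and 25.8 (-1.05). The count depends on the gene model: 4 of 40 members with models under 1 kb passed, 6 of 28 between 1 and 2 kb, and 10 of 19 at 2 kb or more, although their median differences before removal were alike (-0.69, -0.67 and -0.59). Members listed as higher after removal, such as Rpl39 (122 and 128 FPKM) and Rps10 (180 and 194 FPKM), were nearly level between the libraries. Processed pseudogenes of ribosomal proteins may also take reads. Ribosome assembly (0 higher and 1 lower of 69), initiation factors (1 and 1 of 53) and aminoacyl-tRNA synthetases (0 and 0 of 34) did not pass the rule.

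In protein folding and degradation, the small modifiers ubiquitin, NEDD8 and SUMO had 3 of 11 members lower (27.3%), among them Ubl5 (21.3 and 9.47 FPKM, -0.97) and Nedd8 (-0.69). Chaperonin, prefoldin and tubulin cofactors had 3 of 20 lower (15%), the prefoldin subunits Pfdn2 (-0.93) and Pfdn6 (-0.64) and the beta-tubulin cofactor Tbca (-0.61), and 1 higher, the cofactor Tbcd (0.62). The median of that list was -0.01. The proteasome (0 higher and 3 lower of 44) and heat shock proteins (2 and 1 of 50) did not pass the rule.

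Genes of the contractile and adhesive machinery were lower in part. Myosins and contractile regulators had 6 of 28 members lower (21.4%) and 1 higher, or 5 and 5 without the length removal. Cnn2, an actin-binding calponin, was at 33.3 FPKM on SFMA against 7.12 on N-SFMA, with 5.45 on L-SFMA beside 7.13 on NL-SFMA, and was 4.68-fold lower in N-SFMA (4.02 to 5.47). The transgelins Tagln2 (13 and 3.22 FPKM, -1.52) and Tagln (23.5 and 8.79 FPKM, -0.97), also actin binders, and the myosin light chain Myl9 (12.8 and 3.45 FPKM, -1.25) followed. Integrins and focal adhesion genes had 5 of 29 lower (17.2%) and 0 higher: the fibronectin receptor subunit Itga5 (-0.66), Itgb5 (-0.68), the adaptor Parva (27.5 and 15.8 FPKM, -0.65), Zyx (37.1 and 22.5 FPKM, -0.64) and Tns3 (-0.60). Tns3 was at 1.32 and 1.15 FPKM, so its place rests on the length removal. Tight and gap junction genes had 4 of 9 lower (44.4%) and 0 higher, among them the connexins Gja1 (-0.88) and Gjc1 (-0.63) and the junction-associated gene Tjap1 (-0.59).

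The list of laminins, nidogens, fibronectin and other glycoproteins had 5 of 22 members lower (22.7%) and 2 higher. Tnc, the tenascin of radial glia, was at 8.83 FPKM on SFMA against 3.85 on N-SFMA, with 9.63 on L-SFMA beside 6.22 on NL-SFMA (-1.37), and so was lowest in N-SFMA. Sparcl1, a glycoprotein that astrocytes secrete, was at 12.9 and 4.33 FPKM (-1.34), and Efemp2 (-0.91), elastin (Eln, -0.80) and Sparc (-0.66) also passed. The higher members were osteopontin (Spp1, 1.89 and 4.22 FPKM, 1.15) and Mfap4 (133 and 176 FPKM, 0.69), and without the length removal 1 member was higher. Collagens had 3 of 11 lower (27.3%), and 2 without the length removal: Col2a1 (-0.95), Col4a1 (-0.89) and Col5a1 (-0.62). Heparan and chondroitin sulphate synthesis had 5 of 33 lower (15.2%, or 3 without the length removal), Chst14 (-0.77), Hs3st1 (-0.77), Dse (-0.75), B3gat3 (-0.61) and Hs3st2 (-0.59), and 2 higher, Hs6st3 (0.88) and B3galt6 (0.62). All are enzymes that build or modify the sugar chains of proteoglycans. Cadherins and catenins, the classical cell-cell adhesion genes, had 1 of 24 higher and 0 lower and a median of 0.06, which did not pass the rule. That count depends on the length removal: without it 7 were higher and 0 lower, with a median of 0.37.

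Immune and blood genes were few. Antigen presentation and interferon-stimulated genes had 3 of 11 lower (27.3%), the MHC class I light chain B2m (29.1 and 10.9 FPKM, -1.13), the interferon-responsive factor Irf1 (2.45 and 0.486 FPKM, -1.12) and Ifitm2 (-0.71), and 1 higher, Ifitm10 (0.60). Complement and phagocytosis genes had 4 of 10 lower (40%): the bridging ligand Gas6 (10.4 and 3.53 FPKM, -1.42), the astrocytic engulfment receptor Megf10 (-1.21), and the microglial adaptors Tyrobp (15.7 and 4.29 FPKM, -1.14) and Fcer1g (-0.62). Cytokines and chemokines had 0 of 34 higher and 1 lower. Marker genes of other cells moved with these lists. Of microglial markers 6 of 9 tested were lower, with a summed level of 71.2 FPKM in SFMA and 31.6 in N-SFMA, and Csf1r, a defining marker, was at 2.86 and 2.13 FPKM. Of erythroid markers 7 of 10 were lower, with summed levels of 569 and 170.3 FPKM, and Hba-a1, an alpha globin, was at 494 and 147 FPKM. Their part in the immune and blood lists was not tested.

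Markers of radial glia and intermediate progenitors were lower in 11 of 29 cases and higher in 1, the intermediate progenitor factor Eomes, with summed levels of 2394 FPKM in SFMA and 1348 in N-SFMA. Astrocyte markers were lower in 9 of 14 cases (395 and 204 FPKM summed) and higher in 1, the glutamate transporter Slc1a2 (1.91 and 3.20 FPKM, length-removed 0.60). Oligodendrocyte-lineage markers were lower in 4 of 8 (52.4 and 43.6 FPKM summed). Among defining markers Pax6 was at 24.2 and 15.4 FPKM, Sox2 at 72.1 and 44.4, Hes5 at 10.5 and 7.77 (length-removed 0.12), Gfap at 2.69 and 1.07, and Aqp4 at 0.0290 and 0.0660. Fabp7, the lipid carrier of radial glia, was at 264 FPKM on SFMA against 46.7 on N-SFMA, with 58.9 on L-SFMA beside 41.6 on NL-SFMA (5.65-fold lower in N-SFMA, 5.26 to 6.08), and a second glutamate transporter, Slc1a3, was at 22.1, 6.39, 8.23 and 10.6 FPKM in the same order (3.45-fold lower, 3.14 to 3.80). Excitatory-neuron markers summed to 835 FPKM in SFMA and 1011 in N-SFMA, with 2 of 22 past 1.5-fold higher, and interneuron markers to 473 and 370.5, with 1 of 23 higher and 1 lower. Summed marker levels, here and above, are without the length removal, unlike the counts of members. The interneuron list had a length-removed median of 0.18, with 15 members above 0 and 8 below. The part of these cell types in the division, FGF, Notch, Hippo, matrix and junction lists was not tested. Defining markers of endothelial cells, pericytes, fibroblasts and choroid plexus were low, at about 1 FPKM or less in both libraries. The choroid plexus gene Ttr was at 1.03 FPKM in SFMA and 0.542 in N-SFMA (length-removed 0.09), and Folr1 at 0.267 and 0.152. Col1a2 was at 0.851 and 0.65 FPKM, Col1a1 at 0.469 and 0.256 and Dcn at 0.0906 and 0.0687. Pdgfrb was at 0.555 and 0.5005 FPKM and Pecam1 at 0.242 and 0.0485.

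Upward, the differences were smaller. Axon guidance had 10 of 61 members past 1.5-fold higher (16.4%) and 2 lower, with a median of 0.15. With the length trend kept, 18 were higher and 0 lower. The 10 were led by the ephrin Efnb2 (47.8 and 66.2 FPKM, 0.84), the Eph receptor Epha3 (0.83), the semaphorin Sema3c (28.4 and 57.6 FPKM, 0.80) and its receptor Nrp1 (0.77), and the lower members were Rgma (-0.81) and Unc5b (-0.64). The place of Efnb2 rests on the length removal: its difference was 0.46 before it, and its CPM fold was 1.38. Microtubule-associated proteins had 7 of 49 higher (14.3%) and 0 lower, with a median of 0.23, led by Map9 (16.2 and 32.6 FPKM, 1.01), Map1b (55.4 and 164 FPKM, 0.99) and Map2 (0.78). Before the length removal 20 of the 49 had passed. Spectrins, ankyrins and plakins, which form the membrane skeleton, had 5 of 29 higher (17.2%) and 0 lower, among them Sptan1 (0.80), Sptbn1 (0.78), Ank2 (0.78) and Ank3 (0.62). Their list median was -0.10, and without the removal 9 were higher and the median was 0.26.

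Protocadherins had 3 of 20 higher (15%) and 0 lower, Pcdhb8 (0.82), Pcdhb7 (0.70) and Pcdhb3 (0.65), members of the beta cluster with similar sequences. With the length trend kept, 5 were higher. Sodium and calcium channels had 3 of 25 higher (12%), the auxiliary subunits Cacng2 (0.85), Cacng5 (0.80) and Cacna2d1 (3.60 and 7.07 FPKM, 0.74), and 1 lower. Tubulins had 3 of 15 higher (20%), the neuronal isotypes Tubb3 (1882 and 2602 FPKM, 0.72) and Tubb4a (109 and 154 FPKM, 0.69) and the smaller of 2 rows named Tuba1c (1.19), and 1 lower, the non-neuronal isotype Tubb6 (23.8 and 7.23 FPKM, -1.58). The call upward rests on the length removal, without which 1 tubulin was higher, and the CPM folds of Tubb3 (1.38) and Tubb4a (1.42) are under 1.5.

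The 15 named genes that were highest did not share a function. Tro, an adhesion-related gene of the trophinin family, was at 27.3 FPKM on SFMA against 72.9 on N-SFMA, with 64.3 on L-SFMA beside 65.7 on NL-SFMA, and was 2.67-fold higher in N-SFMA (2.38 to 3.00), with a length-removed difference of 1.83. Prkaa2, a catalytic subunit of the energy sensor AMPK, was at 1.98, 6.15, 7.01 and 12.5 FPKM (3.10-fold, 2.49 to 3.90). Zyg11b, a substrate receptor of a cullin ubiquitin ligase, was at 13.1, 29.8, 30.4 and 62.8 FPKM (2.28-fold, 2.07 to 2.53). SFMA was the lowest of the 4 libraries for each of them.

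The transcription factors among them were Eomes, of intermediate progenitors (36.5 and 78.2 FPKM, 1.20), Mef2c, of maturing neurons (8.48 and 19.3 FPKM, 1.10), and the AP-2 factor Tfap2d (3.37 and 6.96 FPKM, 1.12). Genes of ubiquitin ligase families were Siah3 (1.14) and Rnf24 (1.12). Genes of the cell surface and of vesicles were the amino acid transporter subunit Slc3a1 (1.14), the vesicle calcium sensor Syt1 (1.13), the adhesion molecule Negr1 (1.11), the receptor phosphatase Ptprk (1.11) and the sialyltransferase St8sia3 (1.11). Smim17 (3.20 and 5.74 FPKM, 1.18) encodes a small membrane protein. Without the length removal 9 of the 15 named higher genes came under 2-fold. Among them were Rnf24 (0.66), Smim17 (0.68), Siah3 (0.75), St8sia3 (0.79) and Ptprk (0.80). Gm17364, at 1.65, has a model of 69 bases, and its value moves with how the length trend is drawn there: it was 1.01 without the removal, 1.24 with a lowess span of 0.1 and 1.92 with 0.6. The other lower genes of the 15 were the embryonic globin Hbe1 (21.4 and 2.30 FPKM, -2.25) and the secreted protein gene Oaf (8.88 and 1.38 FPKM, -1.79).

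**Figure D4:**
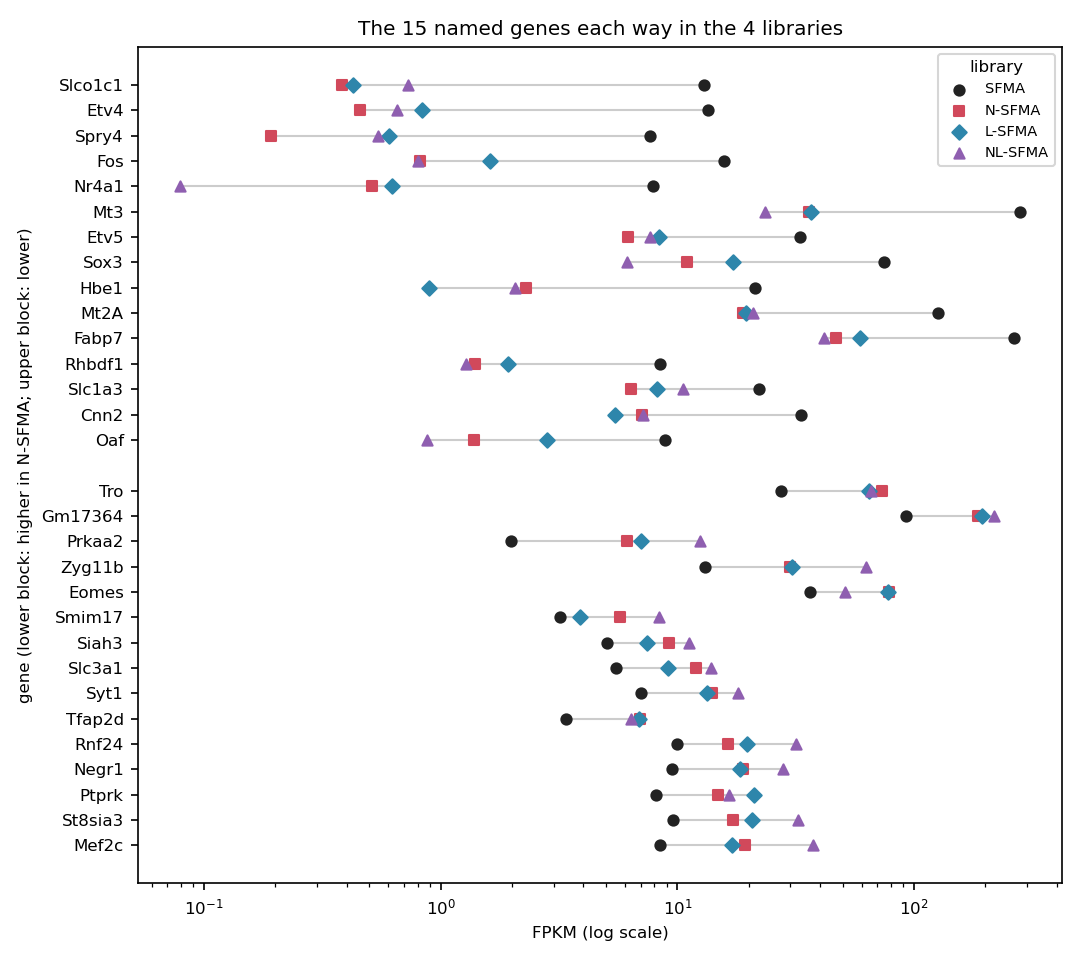
FPKM (horizontal axis, log scale) of the 15 named genes each way (vertical axis) in the 4 libraries, 1 point per library. SFMA (black circles) is the highest of the 4 for all 15 lower genes and the lowest of the 4 for all 15 higher genes.

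SFMA was the highest of the 4 libraries for all 15 named lower genes and the lowest for all 15 higher ones, where the shares over all tested genes were 38% and 34.3%. The genes were chosen for their difference from SFMA, so this order is partly fixed by the choice. L-SFMA against SFMA and NL-SFMA against SFMA share the SFMA library with the present comparison. The pair NL-SFMA and L-SFMA shares no library with it and differs by the same letter, N. In that pair, with its own length trend removed, 11.4% of tested genes were past 1.5-fold higher and 13% lower.

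Of the 15 named higher genes, 10 were past 1.5-fold higher in NL-SFMA than in L-SFMA too and 0 were lower. Zyg11b (1.23), Smim17 (1.34), Mef2c (1.20), Rnf24 (1.10) and St8sia3 (1.02) were 2-fold higher there, while Eomes was at -0.35 and Ptprk at 0.06. Of the 15 named lower genes, 11 reached 1 FPKM in that pair, and 2 of these were past 1.5-fold lower, Sox3 (-0.95) and Oaf (-0.65), and 2 higher, Hbe1 (1.09) and Cnn2 (0.69). Etv5 (-0.07), Fabp7 (-0.06), Fos (-0.15) and Mt3 (-0.32) were near 0 there, at levels already low in L-SFMA. Slco1c1, Etv4, Spry4 and Nr4a1 were under 1 FPKM in both of those libraries.

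**Figure D5:**
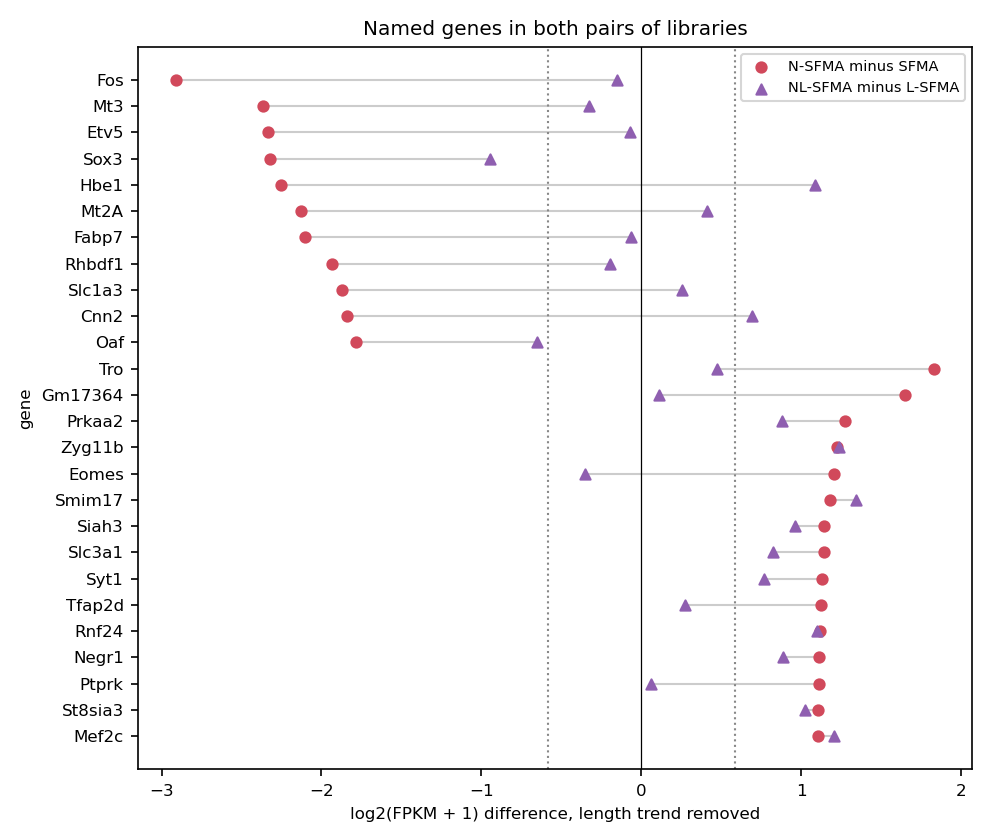
Length-removed log2 difference (horizontal axis) of the 26 named genes (vertical axis) with a value in both pairs, circles for N-SFMA minus SFMA and triangles for NL-SFMA minus L-SFMA, with dotted lines at 1.5-fold. Triangles lie beyond 1.5-fold on the same side as the circle for 10 of the 15 higher genes and for 2 of the 11 lower ones.

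The lists also differed between the pairs in their values, a difference that was not tested. The all-gene shares differ too: 11.4% higher and 13% lower in NL-SFMA against L-SFMA, but 5.89% and 6.7% in N-SFMA against SFMA. The upward counts of mitosis and replication genes in the former pair are near its share. Mitosis genes had 8 of 59 members higher and 1 lower in NL-SFMA against L-SFMA (median 0.17). Replication genes had 5 of 52 higher and 2 lower there (0.06), where N-SFMA against SFMA had 24 and 9 lower and 0 higher. The named members of both lists were also lower in L-SFMA and in NL-SFMA than in SFMA. Length-removed values, in that order, were -0.86 and -1.42 for Spc24, -0.84 and -0.64 for Gmnn, and -0.37 and -0.29 for Orc1. Cdca3, Cenpm, Cenpa, Pola2 and Pole2 were below 0 in both too. These genes were named for their difference from SFMA, and both pairs share the SFMA library. An effect of N alone on these lists was not tested. Hippo genes had 4 of 21 higher and 0 lower in NL-SFMA against L-SFMA (0.18), and axon guidance genes 3 of 60 higher and 11 lower (-0.13). Notch genes were lower in 10 of 28 cases (-0.30), ATP synthase in 7 of 16 (-0.33) and the Sox, Fox and bHLH list in 17 of 66 (-0.26). Ribosomal proteins had 15 of 85 higher and 14 lower (0.08). Mitochondrially encoded genes held 2.68% of reads on SFMA against 2.23% on N-SFMA, with 2.33% on L-SFMA beside 5.89% on NL-SFMA.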

How the data were processed

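Poly(A) RNA of 1 library per hydrogel was sequenced from NEBNext Ultra RNA libraries, a kit that does not mark strand, per the labels' protocols, so overlapping and antisense genes cannot be told apart. The deposited counts are whole reads per gene, made with HISAT2 and HTSeq 0.13.5 per the submitters' processing notes, which name the builds mRatBN7.2 and GRCh38. The deposited FPKM equals the count over gene-model length and summed count, which gave lengths as whole bases to within 2.39e-09. Gene coordinates are not reported, as the promoter table uses GRCr8.

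Differences of log2(FPKM + 1), which understate low genes, had a lowess on log2 length removed (span 0.3, statsmodels). Folds of single genes are CPM ratios with exact Clopper-Pearson 95% intervals, which cover counting error only, as does the floor of 3 counts. Scaling factors from edgeR and DESeq2 were alternatives. The removal was tested on simulated data with a straight trend on log2 gene-model length. That setting cannot show errors that arise where model and transcript length differ. Genes named are the 15 largest differences each way with an assigned symbol and 5 FPKM, up to 4 per described list with 2 FPKM, and defining markers. Members beyond these, named where a count was 5 or fewer, and Mt1, were chosen after their values were seen. Members, lists and tests were chosen with earlier results of these data known. H19 was taken out of the histone list and Ndufa4 out of complex I. Symbols occurring more than once (169 rows) were kept as separate rows. In RefSeq promoters 9022 of 11952 tested symbols matched. Some list members are counted but not reported here by name.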

Additional observations from a re-analysis of the deposited data

Results flagged for a closer look

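The embryonic globin gene Hbe1 differed in opposite directions in the 2 pairs of libraries that add the letter N: its length-removed log2 difference was -2.25 in N-SFMA minus SFMA and 1.09 in NL-SFMA minus L-SFMA. It was at 21.4 FPKM on SFMA against 2.30 on N-SFMA, with 0.890 on L-SFMA beside 2.05 on NL-SFMA. The L-SFMA and NL-SFMA values rest on 9 and 18 reads, and the more abundant globin gene Hba-a1 was at -0.30 in that pair. The difference between the pairs was not tested, since each group is 1 library.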

How the results depend on the processing

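No paired analysis was possible because each hydrogel has 1 library, and for the same reason no replicate could be left out. Genes 2-fold lower numbered 328 without the length removal, 407 with a pseudocount of 0.1 FPKM, 52 with 5 FPKM and 444 on log2 CPM, against 155. Genes 2-fold higher numbered 285, 13 and 307 under the last 3, 76 with a minimum of 5 FPKM and, chosen after seeing the data, 53 with assigned symbols only, against 139. Lists passing the rule upward numbered 20 without the removal, 16 without a filter and 4 on log2 CPM, against 7. The other 52 values of these counts, including those for lists downward and for named genes in the second pair, stayed within 1.5 times. Of list medians, 20 of 32 were at least 1.1-fold from 0 and none of these changed sign under the 12 alternatives, while 8 of the 12 smaller ones did. No named gene changed sign, and 12 of 30 came under 2-fold in at least 1 alternative, 11 of them higher genes and the other Oaf. TMM and DESeq2 scaling moved the count of lower genes from 155 to 157. Genes under 5 FPKM rest on few reads and hold 79 of the 139 higher calls.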

Other observations

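Some gene families were noticed after their values were seen, so their counts are descriptions and no list was made of them beforehand. Over all tested genes 5.89% were past 1.5-fold higher and 6.7% lower. Caveolar, LIM-domain and calponin-family proteins, which link actin to membranes and adhesions, had 12 of 23 tested members past 1.5-fold lower in N-SFMA and 0 higher, with a median length-removed difference of -0.59. The members with the largest differences, Cnn2 and Tagln2, are also counted among the myosins and contractile regulators above. Csrp1, a muscle-type LIM protein, was at 30.5 FPKM in SFMA and 9.04 in N-SFMA (-1.41), and Trip6, a zyxin relative, at 27.0 and 8.33 (-1.40). S100 proteins, galectins and annexins, mostly calcium- or sugar-binding, had 10 of 18 lower and 0 higher (median -0.63), among them Lgals1 (42.7 and 12.3 FPKM, -1.26) and S100a10 (58.5 and 19.8 FPKM, -1.06). ETS factors had 6 of 14 members lower, 3 of them the PEA3 factors Etv1, Etv4 and Etv5. Outside that group the lower members included Elk3, at 2.05 and 0.211 FPKM (-1.52) and the repressor Erf, at 11.1 and 3.87 FPKM (-1.39).

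Sialyltransferases, which cap surface sugars, had 4 of 15 members past 1.5-fold higher and 0 lower (median 0.28): St8sia3, St6galnac5 (5.27 and 10.5 FPKM, 1.10), St8sia1 (0.89) and the polysialyltransferase St8sia2 (24.8 and 45.7 FPKM, 0.63). In NL-SFMA against L-SFMA 5 of the 15 were higher and 0 lower. Synaptotagmins had 3 of 13 higher, Syt1, Syt4 (113 and 194 FPKM, 0.98) and Syt7 (0.85), and 2 lower.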
